A study of Homo sapiens with 6 samples.

Results

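The genes described here are 45 genes of mitosis: the kinases and cyclins that drive entry into it, the spindle checkpoint and its target complex, the kinetochore, the motors and assembly factors of the spindle, the proteins of cytokinesis, and 3 genes that are read as marks of proliferation (MKI67, FOXM1 and TOP2A). They were taken by name, as every probe whose gene name on the array equals one of the 45 symbols, out of 43317 gene names. This gave 56 probes, since 10 of the genes had more than 1. All 56 probes were well above background on all 6 arrays, so all 45 genes were tested and none was lost to a filter.

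The RNA came from BT474 cells, a line from an ER-positive and HER2-positive breast carcinoma, and was measured on 6 one-color Agilent arrays, 2 for each of 3 populations. All 3 populations were stably transfected by nucleofection and grown in RPMI-1640 with fetal bovine serum. Control BT474 cells carried an empty pcDNA3.1 vector, BT474-Var1 cells carried the long variant 1 of the long non-coding RNA NR2F1-AS1, and BT474-Var4 cells carried its short variant 4. The latter populations are called Var1 and Var4 cells from here on. Per the methods the backbones differed, pcDNA3.1/Hygro(+) for variant 1 and a pcDNA3.1 vector with eGFP for variant 4, so variant and backbone cannot be told apart between Var4 and Var1 cells. Both empty backbones served as controls in the study, and which one the Control cells of these arrays carried is not given in the sources used here. All populations went through antibiotic selection and were then kept without antibiotic. The Var1 and Var4 cells were the few that survived and grew into colonies, and the number of clones and the day on which RNA was taken for these arrays are not given in the sources used here. Of the 4 probes of NR2F1-AS1, 3 were higher in Var1 and 2 were higher in Var4 than in Control cells. Nothing in the labels says that arrays A and B of a population came from separate cultures, so the p-values measure the spread between these samples, which may be technical.

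Levels are given as log2 of the processed intensity less the 75th percentile of the array, so that 0 is the brightness below which 75% of the probes lay. A difference of -0.40 leaves about 76% of the Control level. Differences were tested with limma in 1 fit of all 6 arrays, and p was adjusted over all tested probes. Of 58201 probes per array, 47.7% to 57.5% were well above background. The 6 arrays shared 1 slide. Control arrays lay in rows 1 and 2, and the Var1 and Var4 arrays in rows 3 and 4, so slide row cannot be told apart from transfected against Control. The second column held just the Var1 arrays, so slide column and Var1 transfection cannot be told apart either. The 10 luminal markers listed, among them ESR1, ERBB2 and KRT8, were well above background on all 6 arrays. Their summed level was 11.05 to 11.07 in Control, 11.39 to 11.41 in Var1 and 11.012 to 11.025 in Var4 cells. At an adjusted p under 0.05 (limma), 3 were lower and 4 higher in Var1 cells, beside 20.7% and 14.2% of all tested genes. In Var4 cells 2 were lower, 1 of them by 2-fold or more (-1.22), and 0 higher, beside 14.6% and 10.2%. Of 7 fibroblast markers 4 lay below background on all 6 arrays, and the summed level of the list was 1.65 to 1.67 in Control, 1.88 to 1.93 in Var1 and 2.47 to 2.52 in Var4 cells. Of the 3 tested, COL1A1, a fibrillar collagen gene, was higher in Var1 (0.34, adjusted p = 0.0116) and in Var4 cells (1.03, adjusted p = 0.00293), DCN was well above background on the 2 Var4 arrays alone and higher there (adjusted p = 0.0125), and PDGFRB did not pass (-0.02 and -0.32). Of 4 endothelial markers 1 lay below background on all 6 arrays, and their summed level was 1.39 to 1.49, 0.84 to 0.94 and 1.30 to 1.38. Of the 2 tested, VWF was lower in Var1 cells (-0.87, adjusted p = 0.00577) and CDH5 did not pass (-0.27 and -0.05). Of 5 basal markers 2 lay below background on all 6 arrays, and their summed level was -2.65 to -2.61, -2.06 to -1.59 and -2.35 to -1.88. Of the 2 tested, 1 was higher by 2-fold or more at an adjusted p under 0.05 in each transfected population. Of 6 leukocyte markers 4 were on the array by name, none of them below background on all 6 arrays, and their summed level was 0.31 to 0.38, 0.39 to 0.42 and 0.18 to 0.29. The part of these other markers in the results below was not tested.

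As background, most of these genes are switched on together in late S and G2 phase, peak at mitosis, and are low in resting cells. Many of their promoters hold a short element near the start site, the cell cycle homology region, beside CCAAT boxes bound by the factor NF-Y. The complex of MuvB with B-Myb and FOXM1 acts at such promoters in dividing cells, and the DREAM complex holds them off in resting ones. The kinases CDK1, AURKA, AURKB and PLK1 act in mitosis. The checkpoint delays anaphase until every chromosome has attached to the spindle through its kinetochore.

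RefSeq promoters (GRCh38.p14, 250 bases before to 50 after the start) were found for 37 of the 45 genes. BIRC5, TTK, AURKA, FOXM1, UBE2C, TPX2, BUB3 and RACGAP1 had no entry. The letters searched were TTTGAA or TTTAAA for the cell cycle homology region, CCAAT for the box, and TTCCCGC or TTGGCGC for E2F, each on either strand. By gene, 32 of 37 (86.5%) held the first in at least 1 promoter, 31 (83.8%) held CCAAT and 7 (18.9%) held an E2F motif. Over the promoters of all 27305 genes in the table the shares were 27.9%, 39.7% and 11.0%. Both the first element and CCAAT stood in 1 promoter for 25 of 37 members (67.6%) against 11.2% of all genes. The stretches from 100 before to 50 after the start are shown for 7 members chosen for how their RNA moved. CDC25C has more than 1 promoter, and the one with the most marked letters in this stretch is shown. Some other CDC25C promoters held neither the cell cycle homology letters nor CCAAT. Of these CCNB1 fell in both populations, CDC25C fell further in Var4, KIF14 and NUF2 fell further in Var1, INCENP and HMMR passed the test in Var4 cells alone, and NDC80 did not pass in either. Capitals mark the letters of the cell cycle homology region and of the CCAAT box, on either strand.
CCNB1 (chr5:69167050-69167199, plus strand): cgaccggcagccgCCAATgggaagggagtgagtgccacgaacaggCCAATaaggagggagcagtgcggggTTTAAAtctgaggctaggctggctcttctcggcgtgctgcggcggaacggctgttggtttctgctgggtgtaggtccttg
CDC25C (chr5:138331828-138331977, minus strand): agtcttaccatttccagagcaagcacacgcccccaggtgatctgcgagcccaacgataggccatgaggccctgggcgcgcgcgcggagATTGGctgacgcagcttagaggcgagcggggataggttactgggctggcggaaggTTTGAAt
KIF14 (chr1:200620702-200620851, minus strand): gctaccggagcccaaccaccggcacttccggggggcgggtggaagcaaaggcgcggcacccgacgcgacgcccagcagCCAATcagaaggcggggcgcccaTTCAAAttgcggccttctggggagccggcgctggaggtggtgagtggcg
NUF2 (chr1:163321854-163322003, plus strand): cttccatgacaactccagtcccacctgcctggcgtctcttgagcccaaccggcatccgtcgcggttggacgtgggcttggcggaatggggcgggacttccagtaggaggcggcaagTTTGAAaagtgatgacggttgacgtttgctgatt
INCENP (chr11:62123911-62124060, plus strand): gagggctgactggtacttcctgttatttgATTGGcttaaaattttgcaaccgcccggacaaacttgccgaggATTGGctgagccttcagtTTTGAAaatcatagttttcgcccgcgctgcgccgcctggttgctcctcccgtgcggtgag
HMMR (chr5:163460532-163460681, plus strand): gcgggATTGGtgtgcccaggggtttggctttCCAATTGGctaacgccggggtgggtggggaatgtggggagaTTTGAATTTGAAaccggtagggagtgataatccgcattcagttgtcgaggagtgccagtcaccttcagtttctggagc
NDC80 (chr18:2571457-2571606, plus strand): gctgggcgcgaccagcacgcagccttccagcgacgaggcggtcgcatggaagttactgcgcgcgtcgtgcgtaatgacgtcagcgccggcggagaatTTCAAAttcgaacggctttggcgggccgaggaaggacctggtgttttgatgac
The letters stood both in promoters whose RNA fell and in those of NDC80 and INCENP, whose RNA did not pass the test in Var1. HMMR holds a run of 2 TTTGAA side by side, and NUF2 and NDC80 hold no CCAAT in this stretch. Members with the cell cycle homology letters and members without them (32 and 5 genes) had like median changes. These were -0.40 and -0.45 in Var1 and -0.42 and -0.48 in Var4 cells. With and without CCAAT (31 and 6 genes) the medians were -0.41 and -0.38 in Var1 and -0.45 and -0.23 in Var4 cells. With and without an E2F motif (7 and 30 genes) they were -0.49 and -0.40 in Var1 and -0.47 and -0.42 in Var4 cells. None of these differences was tested.

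Most mitosis genes were lower in both transfected populations than in Control cells, and by a moderate amount. In Var1 cells 34 of 45 were lower at an adjusted p under 0.05 (limma), 0 were higher (0 also at an unadjusted p under 0.05) and 11 did not pass, beside 20.7% of all 24627 tested genes lower and 14.2% higher. In Var4 cells 35 of 45 were lower, 0 higher and 10 did not pass, beside 14.6% lower and 10.2% higher. At an unadjusted p under 0.05, 1 member, ANLN, was higher in Var4 cells. Other settings called NDC80 higher in Var1 cells (quantile normalization) and ANLN or BUB3 higher in Var4 cells (3 settings, at most 2 genes). In all, 28 were lower in both, 6 in Var1 alone, 7 in Var4 alone and 4 in neither. By its brightest probe no member reached 2-fold. Of all genes, 1.15% were lower by 2-fold or more in Var1 and 1.55% in Var4 cells. A second, dim CDK1 probe was lower by more than 2-fold in Var4 cells (-1.12, adjusted p = 0.00953). The median difference was -0.41 in Var1 and -0.39 in Var4 cells, or 75.5% and 76.1% of the Control level left, against -0.05 and -0.08 over all tested genes. The differences ran from -0.97 (KIF14) to 0.11 (NDC80) in Var1 and from -0.98 (CDC25C) to 0.17 (BUB3) in Var4 cells. The shift stood on each array: the median member lay at 0.01 and -0.01 about the Control mean on the Control arrays, at -0.41 and -0.43 on the Var1 arrays and at -0.37 and -0.39 on the Var4 arrays. For 40 of the 45 genes both Var1 and both Var4 arrays lay below both Control arrays. The same share was not computed over all tested genes, so this count has no background to be set beside. In a bulk sample, fewer dividing cells and less of each RNA per dividing cell cannot be told apart. The medians were -0.39 in Var1 and -0.34 in Var4 cells over the 23 brighter members, and -0.47 and -0.49 over the 22 dimmer ones, and the difference between these was not tested.

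**Figure D1:**
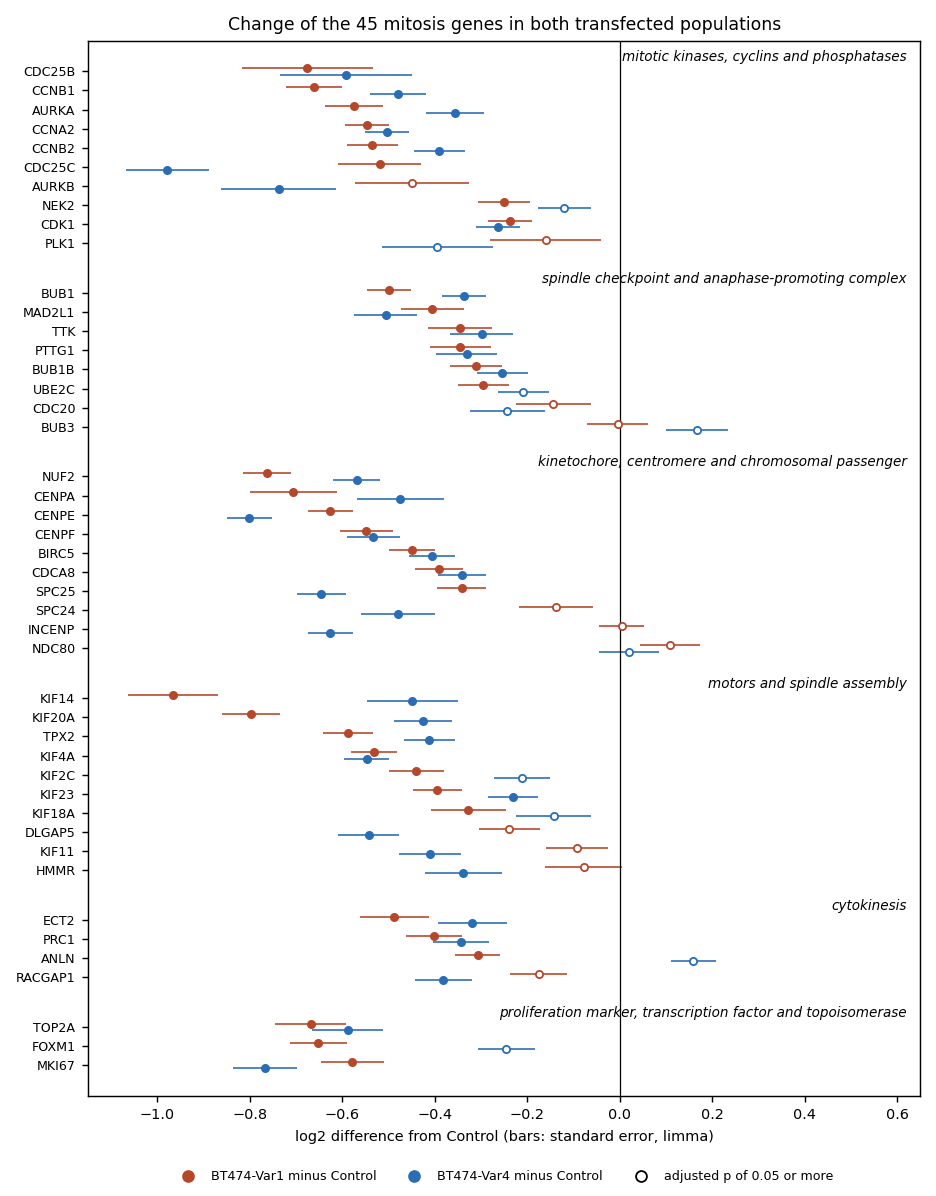
Differences of the 45 genes from Control cells on the log2 scale (x axis), in 6 groups by role, with Var1 in red, Var4 in blue, standard errors as bars and open points where the adjusted p was 0.05 or more. Nearly all points lie left of 0, and NDC80, INCENP, ANLN and BUB3 have points right of it.

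The counts rested on 2 arrays per population. The shares of all genes given above belong to the fit as reported, and shares under the settings below are not given. A loss of calls here can therefore not be read as particular to the members. Without Control replicate A, 18 members were lower in Var1 and 6 in Var4 cells, and without Control replicate B, 20 and 6. Without Var1 replicate A, 21 were lower in Var1 and 23 in Var4 cells, and without Var1 replicate B, 24 and 23. Without Var4 replicate A or B, 13 were lower in Var4 and 33 in Var1 cells. With no filter on dim probes, which tested 43317 gene names, 14 and 1 were lower, and with each population fitted against Control alone, 33 and 23. Under these settings the medians moved little, between -0.44 and -0.41 in Var1 and between -0.42 and -0.37 in Var4 cells. Quantile normalization moved the Var1 median further, to -0.29, with 28 members lower. In Var4 cells it gave -0.36, with 31 members lower. Calls were kept without each of the 6 arrays in turn by 16 members in Var1 cells, namely CCNA2, CCNB1, CCNB2, AURKA, BUB1, NUF2, CENPE, CENPF, BIRC5, KIF14, KIF20A, KIF4A, TPX2, MKI67, FOXM1 and TOP2A. In Var4 cells they were kept by 5 members, CDC25C, SPC25, CENPE, INCENP and MKI67. Every other fall called in either population was lost without at least 1 array.

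The 3 proliferation genes had the lowest medians of the 6 classes, -0.65 in Var1 and -0.59 in Var4 cells. MKI67 encodes Ki-67, the antigen of cycling cells that coats mitotic chromosomes. It stood at 2.18 and 2.06 in Control, 1.54 and 1.54 in Var1, and 1.40 and 1.30 in Var4 cells. Both transfected populations lay below Control without overlap, in Var1 (-0.58, SE 0.07, adjusted p = 0.00724) and in Var4 cells (-0.77, SE 0.07, adjusted p = 0.00629). The difference between Var4 and Var1 cells did not pass (-0.19, adjusted p = 0.0898). Of its 2 other probes, 1 fell in both populations (-0.62 and -0.49) and 1 did not pass in either (-0.16, adjusted p = 0.203, and -0.31, adjusted p = 0.0600). TOP2A, the topoisomerase that untangles chromosomes before they part, stood at 3.74 and 3.66 in Control, 3.11 and 2.95 in Var1 and 3.14 and 3.09 in Var4 cells. It fell in both (-0.67 and -0.59, SE 0.08, adjusted p = 0.00687 and 0.0129), and the transfected populations overlapped each other. FOXM1, a transcription factor of G2 and mitosis genes, stood at 3.33 and 3.26 in Control, 2.60 and 2.70 in Var1 and 3.05 and 3.06 in Var4 cells. It fell in Var1 cells (-0.65, SE 0.06, adjusted p = 0.00517), whereas in Var4 cells the difference of -0.25 did not pass (adjusted p = 0.0511).

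Of the 10 kinases, cyclins and phosphatases, 8 were lower in each population and the medians were -0.53 in Var1 and -0.44 in Var4 cells. CDK1, the kinase that starts mitosis, stood at 4.18 and 4.17 in Control, 3.93 and 3.95 in Var1, and 3.92 and 3.91 in Var4 cells. It fell in both without overlapping Control (-0.24 and -0.26, SE 0.05, adjusted p = 0.0228 and 0.0247), which left 84.8% and 83.3% of the Control level. A second, dim CDK1 probe gave -0.25 in Var1 (adjusted p = 0.200) and -1.12 in Var4 cells (adjusted p = 0.00953). CCNB1, the cyclin B1 partner of CDK1, stood at 5.25 and 5.22 in Control, 4.56 and 4.58 in Var1, and 4.81 and 4.70 in Var4 cells, and fell in both (-0.66 and -0.48, SE 0.06, adjusted p = 0.00496 and 0.0121). Cyclins A2 and B2 (CCNA2 and CCNB2) also fell in both (-0.55 and -0.50, and -0.54 and -0.39).

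AURKA, the kinase that matures centrosomes, stood at 6.05 and 5.93 in Control, 5.39 and 5.44 in Var1, and 5.64 and 5.62 in Var4 cells. It fell by 0.57 in Var1 and by 0.36 in Var4 cells (SE 0.06, adjusted p = 0.00624 and 0.0234). Its relative AURKB, the kinase of the chromosomal passenger complex, fell in Var4 cells (-0.74, adjusted p = 0.0212) and was -0.45 in Var1 cells (adjusted p = 0.0509). PLK1, a kinase of centrosomes and cytokinesis, stood at 1.87 and 1.97 in Control, 1.69 and 1.83 in Var1, and 1.38 and 1.67 in Var4 cells. All transfected arrays lay below Control, but neither difference passed (-0.16, adjusted p = 0.352, and -0.39, adjusted p = 0.0783). Among the phosphatases that activate CDK1, CDC25C (chr5:137621240-137621299 on hg19, the place of its probe) had the largest fall of all members in Var4 cells. It stood at 0.90 and 1.11 in Control, 0.50 and 0.46 in Var1, and 0.07 and -0.02 in Var4 cells, which left 50.8% of the Control level (-0.98, SE 0.09, adjusted p = 0.00648). In Var1 cells it fell by 0.52 (adjusted p = 0.0158). CDC25B stood at 3.79 and 3.89 in Control, 3.14 and 3.19 in Var1, and 3.05 and 3.44 in Var4 cells, and its falls were -0.68 and -0.59 (SE 0.14, adjusted p = 0.0262 and 0.0470). NEK2, a kinase that splits centrosomes, stood at 1.00 and 1.06 in Control, 0.79 and 0.77 in Var1 and 0.95 and 0.88 in Var4 cells. It fell in Var1 cells (-0.25, SE 0.06, adjusted p = 0.0309) and was -0.12 in Var4 cells (adjusted p = 0.190).

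**Figure D2:**
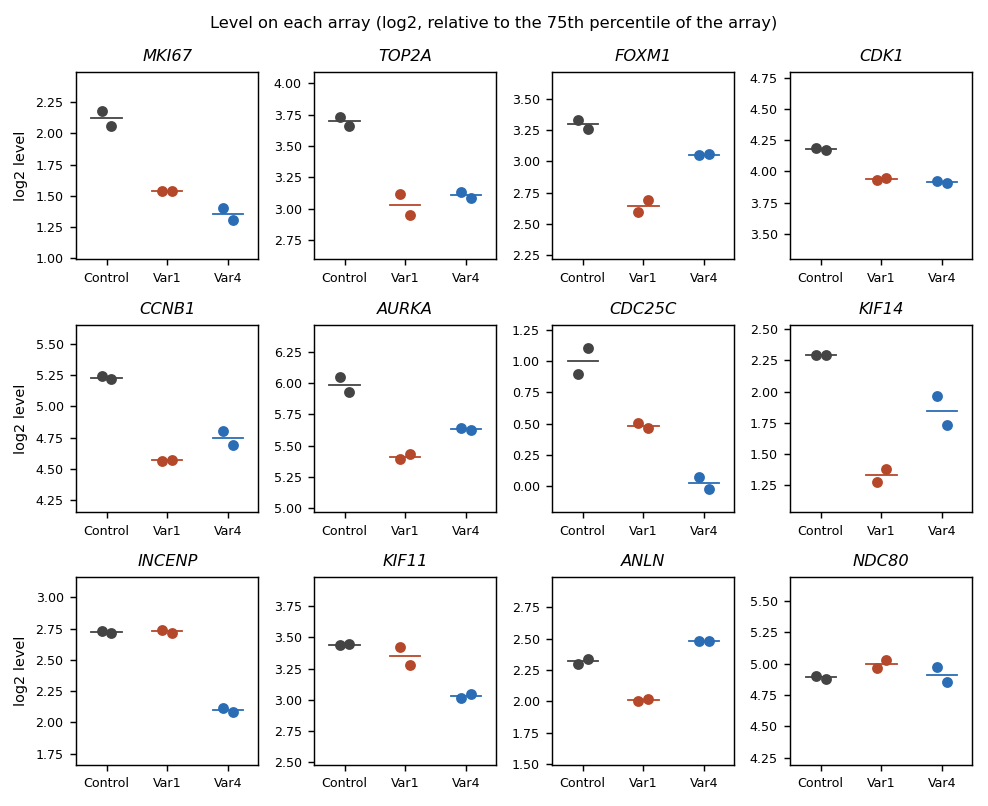
Level on each array (y axis, log2 relative to the array's 75th percentile, each panel spanning 1.5 log2 units) for 12 of the genes, with points for the 2 arrays of each population and lines for their means. MKI67, TOP2A, CDK1, CCNB1, AURKA, CDC25C and KIF14 lie below Control in both transfected populations, INCENP and KIF11 lie clearly lower on the Var4 arrays, and NDC80 stays near its Control level.

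The 8 genes of the spindle checkpoint and of the anaphase-promoting complex had the medians nearest 0 of the 6 classes, -0.33 and -0.28. In Var1 cells 6 were lower and in Var4 cells 5. BUB1, a checkpoint kinase at the kinetochore, stood at 2.87 and 2.87 in Control, 2.39 and 2.35 in Var1, and 2.52 and 2.54 in Var4 cells, and fell in both (-0.50 and -0.34, SE 0.05, adjusted p = 0.00528 and 0.0151). MAD2L1, the checkpoint protein that blocks CDC20, stood at 2.93 and 3.06 in Control, 2.62 and 2.56 in Var1, and 2.47 and 2.51 in Var4 cells, and fell by 0.41 and 0.51 (SE 0.07, adjusted p = 0.0151 and 0.0135). BUB1B, TTK and PTTG1 also fell in both populations, by 0.25 to 0.35. UBE2C, an enzyme that hands ubiquitin to the complex, fell in Var1 cells (-0.30, adjusted p = 0.0192) and was -0.21 in Var4 cells (adjusted p = 0.0577). CDC20, the activator of the complex, was -0.14 (adjusted p = 0.234) and -0.24 (adjusted p = 0.0955). BUB3 stood apart, at 3.71 and 3.79 in Control, 3.69 and 3.81 in Var1, and 3.92 and 3.92 in Var4 cells. Its Var1 arrays overlapped Control (-0.00, adjusted p = 0.964), and its Var4 arrays lay above Control without passing (0.17, SE 0.07, adjusted p = 0.138). The second BUB3 probe fell in Var1 cells (-0.35, adjusted p = 0.0109) and was -0.13 in Var4 cells, so the 2 probes disagree.

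Of the 10 genes of the kinetochore, the centromere and the chromosomal passenger complex, 7 were lower in Var1 and 9 in Var4 cells, with medians of -0.42 and -0.51. NUF2, of the NDC80 complex that binds microtubules, stood at 2.69 and 2.67 in Control, 1.92 and 1.91 in Var1 and 2.14 and 2.08 in Var4 cells. It had the largest fall of its class in Var1 cells (-0.76, SE 0.05, adjusted p = 0.00356) and fell in Var4 cells too (-0.57, adjusted p = 0.00629). NDC80, the namesake of that complex, stood at 4.90 and 4.88 in Control, 4.97 and 5.03 in Var1, and 4.97 and 4.85 in Var4 cells. Neither of its differences passed (0.11, SE 0.06, adjusted p = 0.257, and 0.02, adjusted p = 0.849). The other subunits, SPC24 and SPC25, fell in Var4 cells (-0.48 and -0.65, adjusted p = 0.0211 and 0.00545), and in Var1 cells SPC25 fell (-0.34, adjusted p = 0.0124) and SPC24 was -0.14 (adjusted p = 0.248).

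CENPE, a motor that carries chromosomes to the spindle's middle, stood at 1.97 and 1.98 in Control, 1.37 and 1.32 in Var1 and 1.16 and 1.18 in Var4 cells. It fell in both (-0.63 and -0.80, SE 0.05, adjusted p = 0.00413 and 0.00369), and its fall in Var4 cells was the largest of the class. CENPA, the histone that marks centromeres, stood at 2.72 and 2.74 in Control, 2.06 and 1.99 in Var1 and 2.14 and 2.37 in Var4 cells, and fell by 0.71 and 0.47 (SE 0.09, adjusted p = 0.00899 and 0.0302). CENPF, BIRC5 and CDCA8, the last 2 of the chromosomal passenger complex, fell in both by 0.34 to 0.55. INCENP, the scaffold of the same complex (chr11:61919742-61919801 on hg19), stood at 2.73 and 2.72 in Control, 2.74 and 2.71 in Var1 and 2.11 and 2.08 in Var4 cells. Its Var1 arrays overlapped Control (0.00, SE 0.05, adjusted p = 0.956), whereas it fell in Var4 cells to 64.8% of Control (-0.63, adjusted p = 0.00512).

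Of the 10 motors and spindle assembly genes, 7 were lower in Var1 and 8 in Var4 cells, with medians of -0.42 and -0.41. KIF14, a kinesin of late cytokinesis (chr1:200521324-200521383 on hg19), had the largest fall of all members in Var1 cells. It stood at 2.30 and 2.30 in Control, 1.28 and 1.38 in Var1, and 1.97 and 1.73 in Var4 cells. Its fall was -0.97 in Var1 (SE 0.10, adjusted p = 0.00562), which left 51.2% of Control, and -0.45 in Var4 cells (adjusted p = 0.0378). KIF4A, a kinesin of chromosome arms and the midzone, stood at 2.91 and 2.95 in Control, 2.42 and 2.38 in Var1, and 2.38 and 2.39 in Var4 cells, and fell by 0.53 and 0.55 (SE 0.05, adjusted p = 0.00504 and 0.00634). KIF20A and TPX2, of the midzone and of spindle assembly, fell in both (-0.80 and -0.43, and -0.59 and -0.41). KIF23, a kinesin of the central spindle, fell in both as well (-0.39 and -0.23). KIF2C, a kinesin that takes microtubules apart, fell in Var1 cells (-0.44, adjusted p = 0.00950) and was -0.21 in Var4 cells (adjusted p = 0.0682). The spindle protein gene DLGAP5 fell in Var4 cells (-0.54, adjusted p = 0.0110) and was -0.24 in Var1 cells (adjusted p = 0.0514). KIF11, the kinesin that pushes spindle poles apart, stood at 3.44 and 3.45 in Control, 3.42 and 3.28 in Var1, and 3.02 and 3.05 in Var4 cells. It fell in Var4 cells (-0.41, SE 0.07, adjusted p = 0.0199) and was -0.09 in Var1 cells (adjusted p = 0.337). KIF18A, which dampens chromosome movement, stood at 1.46 and 1.44 in Control, 1.04 and 1.20 in Var1 and 1.37 and 1.24 in Var4 cells. It fell in Var1 cells (-0.33, adjusted p = 0.0396) and was -0.14 in Var4 cells (adjusted p = 0.261). HMMR, a spindle protein also named for binding hyaluronan, stood at 3.93 and 3.76 in Control, 3.78 and 3.75 in Var1 and 3.56 and 3.45 in Var4 cells. Its Var1 arrays overlapped Control (-0.08, adjusted p = 0.506), and it fell in Var4 cells (-0.34, SE 0.08, adjusted p = 0.0492).

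The 4 cytokinesis genes had medians of -0.35 and -0.33, with 3 lower in each population. ECT2, an activator of the RhoA switch that builds the contractile ring, stood at 2.66 and 2.56 in Control, 2.19 and 2.05 in Var1, and 2.29 and 2.29 in Var4 cells, and fell in both (-0.49 and -0.32, SE 0.07, adjusted p = 0.0120 and 0.0440). PRC1, which bundles midzone microtubules, fell by 0.40 and 0.34 (SE 0.06). RACGAP1, the partner of ECT2 at the midzone, stood at 4.01 and 4.01 in Control, 3.89 and 3.78 in Var1, and 3.64 and 3.61 in Var4 cells. It fell in Var4 cells (-0.38, SE 0.06, adjusted p = 0.0192) and was -0.18 in Var1 cells (adjusted p = 0.0902). ANLN, the scaffold anillin of the ring, stood at 2.30 and 2.34 in Control, 2.01 and 2.02 in Var1, and 2.48 and 2.48 in Var4 cells. It fell in Var1 cells (-0.31, SE 0.05, adjusted p = 0.0131), whereas both Var4 arrays lay above Control without passing (0.16, adjusted p = 0.0794).

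The transfected populations also differed from each other for 13 of the 45 genes in the direct contrast, 7 lower and 6 higher in the Var4 population. All tested genes were called at 21.0% lower and 20.9% higher in the same contrast, so these shares of the members, 15.6% and 13.3%, are not above the background. The median difference was 0.05 over the members and -0.03 over all genes. All-gene shares without single arrays are not given for this contrast. INCENP differed the most, at -0.63 (SE 0.05, adjusted p = 0.00241), followed by CDC25C (-0.46, adjusted p = 0.0182), SPC24 (-0.34, adjusted p = 0.0297), KIF11 (-0.32, adjusted p = 0.0223), DLGAP5 (-0.30, adjusted p = 0.0242), SPC25 (-0.30, adjusted p = 0.0138) and CENPE (-0.18, adjusted p = 0.0469). The kinetochore class of 10 genes held 4 of the 7, and also 1 gene called the other way, NUF2. Whether this class differs from the others was not tested. On the other side, KIF14 was higher in Var4 cells by 0.52 (SE 0.10, adjusted p = 0.0170), ANLN by 0.47 (SE 0.05, adjusted p = 0.00418), FOXM1 by 0.41 (SE 0.06, adjusted p = 0.00968), KIF20A by 0.37 (adjusted p = 0.0125), KIF2C by 0.23 (adjusted p = 0.0405) and NUF2 by 0.19 (adjusted p = 0.0398). All 6 fell in Var1 cells, and 3 of them (ANLN, FOXM1 and KIF2C) did not pass against Control in Var4 cells. Second probes of KIF4A (0.32, adjusted p = 0.0307), KIF23 (0.24, adjusted p = 0.0299) and BUB3 (0.22, adjusted p = 0.0278) were higher and that of CDK1 (-0.88, adjusted p = 0.00864) lower in Var4 cells, where the brighter probes did not pass. Without Control replicate A or B, 3 members were lower and 4 higher. Without Var1 replicate A, 3 were lower and 2 higher, and without Var1 replicate B, 2 and 3. Without Var4 replicate A, 3 were lower and 5 higher, and without Var4 replicate B, 2 and 3. INCENP, ANLN and FOXM1 passed without each array in turn.

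**Figure D3:**
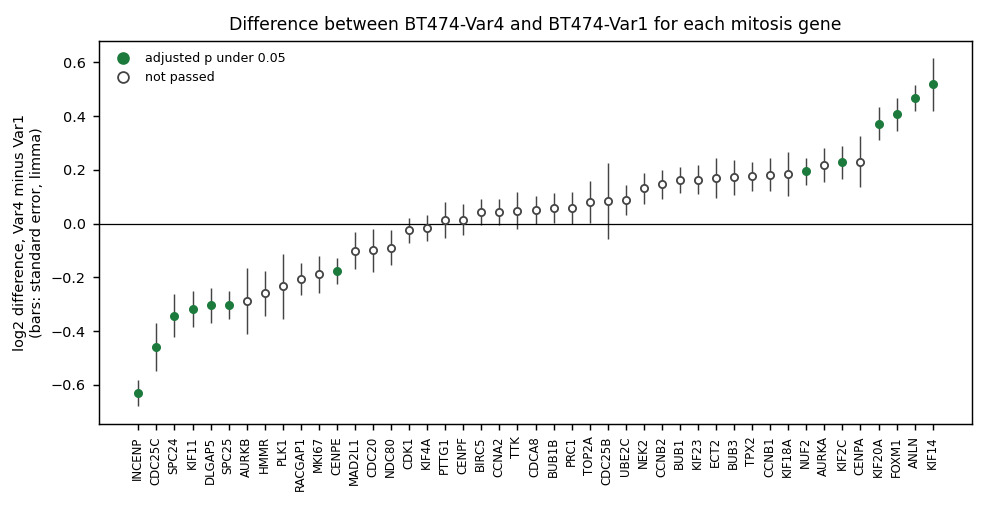
Log2 difference of Var4 minus Var1 cells (y axis) for each of the 45 genes in rising order, with standard errors as bars and green points at an adjusted p under 0.05. INCENP lies lowest at -0.63, KIF14 highest at 0.52, and 32 genes did not pass.

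Other lists of the cell cycle also held many lower genes. Of 82 other mitosis genes, 48 were lower in each population, with medians of -0.29 in Var1 and -0.31 in Var4 cells, and 2 were higher in Var1 cells, MAD1L1 (0.84) and NUMA1 (1.36). Of 37 DNA replication genes, whose RNAs rise earlier in the cycle, 21 were lower in Var1 and 28 in Var4 cells, with medians of -0.23 and -0.42. Of 25 regulators of the DREAM, MuvB and E2F kind, 12 and 8 were lower and 2 and 2 higher, with medians of -0.28 and -0.10. MYBL2, which encodes B-Myb, fell in both (-0.35 and -0.52, adjusted p = 0.0147 and 0.00953), and so did E2F1 (-0.32 and -0.51). CDKN1A, the inhibitor p21, was higher in Var4 cells (1.16, adjusted p = 0.0164) and 0.41 higher in Var1 cells without passing (adjusted p = 0.139). By gene, the promoters of DNA replication genes held an E2F motif in 74.2% and the cell cycle homology letters in 12.9%, against 18.9% and 86.5% of the members.

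**Figure D4:**
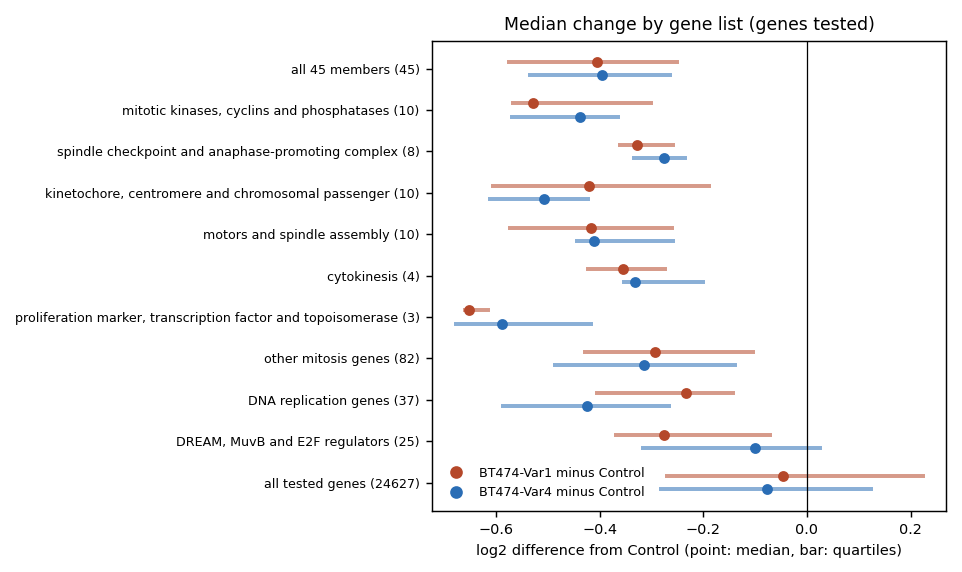
Median log2 difference from Control (points) with the quartiles (bars) for the 45 members, their 6 role groups, 3 other lists and all tested genes, with the number of genes tested beside each name. The members' medians of -0.41 and -0.39 lie below the all-gene medians of -0.05 and -0.08, and the other mitosis and DNA replication lists lie below them as well.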

How the data were processed

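Total RNA was labeled with Cy3 for one-color Agilent arrays. The authors used Feature Extraction 11.5.1.1, per the submitters' processing notes, which subtracted the background, and the deposited intensity values are linear. Their deposited table holds log2 values after a shift to the 75th percentile of each array. Here log2 of the processed intensity was averaged over a probe's spots, leaving out outlier spots, and each array's 75th percentile over probes was subtracted; this matched the deposited table within a median absolute difference of 0.00716. Probes flagged well above background on both arrays of any group (31866) were tested with limma 3.58.1 in R 4.3.3, with 3 residual and 1.53 prior degrees of freedom and Benjamini-Hochberg adjustment. A gene stood by its brightest tested probe. Members, their 6 role classes and the lists were chosen with earlier results of these data known. By rule, values on all 6 arrays are given for 7 core genes and for the extremes of each class. The number of arrays limits the precision. As a check of the code, the fit was also run on simulated arrays in which only a small set of probes was shifted. Far more genes were called on the real arrays, so this does not show how reliable those calls are. The closing section gives the alternatives.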

Additional observations from a re-analysis of the deposited data

Results flagged for a closer look

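In the direct contrast of the 2 transfected populations, 13 members differed at an adjusted p under 0.05 (limma). These are 15.6% of the members lower and 13.3% higher, beside 21.0% and 20.9% of all tested genes, and variant, backbone and slide column cannot be told apart here. Lower in BT474-Var4 cells were INCENP (-0.63), CDC25C (-0.46), SPC24 (-0.34), KIF11 (-0.32), DLGAP5 (-0.30), SPC25 (-0.30) and CENPE (-0.18, as log2 differences). Higher were KIF14 (0.52), ANLN (0.47), FOXM1 (0.41), KIF20A (0.37), KIF2C (0.23) and NUF2 (0.19). Under the 17 alternatives INCENP and ANLN kept this call in all, and the other 11 lost it in at least 1.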

How the results depend on the processing

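Of 46 calls among the named genes, 12 held under all 17 alternatives. Shares over all genes under the alternatives are not given, so a loss of calls cannot be read as particular to the members. Without each array in turn, 18 to 33 members were lower in Var1 cells (median -0.44 to -0.41), 6 to 23 in Var4 cells (-0.42 to -0.37), and 2 to 3 were lower and 2 to 5 higher in Var4 against Var1 cells (0.033 to 0.068). Normexp correction gave medians of -0.43, -0.37 and 0.092 (Var1 and Var4 against Control, then Var4 against Var1 cells) and 20 members higher in the last. Quantile normalization gave -0.29, -0.36 and -0.035. With no filter on dim probes 14 and 1 members were lower, and 1 was lower and 1 higher in Var4 against Var1 cells. With only the groups compared, 23 were lower in Var4 cells and 3 in Var4 against Var1 cells. A variance trend with robust estimation gave 11 lower and 16 higher there. The mean over a gene's probes gave a Var1 median of -0.44 and 10 higher in Var4 against Var1 cells, and the dimmest probe a Var1 median of -0.43. The cause was not tested.

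Same-letter arrays did not deviate together (correlations of -0.01, 0.04 and -0.01). Whether same-letter samples were cultured or handled together is not given in the labels. With the replicate letter as a block, 31 and 25 members were lower, and 5 were lower and 4 higher in Var4 against Var1 cells.

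Among the named genes, directions turned only for differences that had not passed. Against Control in Var1 cells these were BUB3 (0.13 by quantile normalization, -0.064 to 0.054 without single arrays), HMMR (0.041 by quantile normalization, -0.17 to 0.0085 without single arrays), KIF11 (0.026 by quantile normalization) and INCENP (-0.027 by normexp, -0.0022 in the deposited table, -0.0089 to 0.017 without single arrays). Against Control in Var4 cells they were BUB3 (-0.13, dimmest probe) and NDC80 (-0.040 to 0.079 without single arrays). In Var4 against Var1 cells they were CCNB1 (-0.043) and MKI67 (0.13) by the dimmest probe, CDK1 (0.049) by normexp, KIF4A (0.043 by normexp, 0.15 by the mean, 0.32 by the dimmest probe, -0.032 to 0.0008 without single arrays), and CDC25B (-0.11 to 0.28) and TOP2A (-0.0018 to 0.16) without single arrays. Members not named by the rule that changed sign in Var4 against Var1 cells under at least 1 alternative were CCNA2, BUB1B, TTK, UBE2C, PTTG1, CENPF, BIRC5, CDCA8 and PRC1, and none of these had passed. With 100 in place of 250 bases before the start, 83.8% of the 37 members with a promoter held the cell cycle homology letters. CCAAT stood in 75.7% and an E2F motif in 10.8%, where the longer window gave 83.8% and 18.9%. Over all genes the shares were 13.6%, 25.3% and 6.04%. The shorter window lies inside the longer one, so its shares could only be equal or lower. The 2 arrays per group limit which differences the fit could call.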
